A study of Aedes aegypti with 6 samples.

Results

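In testes of the mosquito Aedes aegypti, 200 genes were found whose values divided the arrays of this study across the strains instead of between them. Set A holds T37 replicates 1 and 2 with RED replicate 3, and set B holds T37 replicate 3 with RED replicates 1 and 2. The sets come from measured values and not from any label. For each gene the gap was the lowest log2 intensity of one set minus the highest of the other, so that a gap above 0 means no overlap between the sets. Of 12813 genes measured, 9944 had a mean log2 intensity of 9 or more over the 6 arrays (the level limit), and among these the 100 largest gaps in each direction were taken. The 200 genes are 1.56% of those measured. The genes were chosen by their log2 intensities on these 6 arrays, so the gaps and all differences between the sets are given as descriptions with no test.

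The study hybridised total RNA from testes of early male pupae to 6 one-colour arrays, on which the brightness of a feature (its intensity) reports the abundance of a transcript. T37, a meiotic drive strain, and RED, a strain without drive, gave 3 arrays each, and all males had been kept at 26°C, in 80% humidity, with a day of 16 h light followed by 8 h dark. No age beyond the early pupal stage, no treatment and no allele is given in the labels, and how many males went into an extract is not stated in the sources used here. Each strain is 1 line, so drive cannot be told apart from any other difference between these lines.

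In meiotic drive a chromosome reaches more of the gametes than fair segregation would give it. The driver known in Aedes aegypti travels with the male-determining locus, breaks sensitive chromosomes that carry the female form during male meiosis, and leaves an excess of sons. Pupal testes hold germ cells at successive stages, from dividing spermatogonia through meiosis to spermatids, inside a sheath of somatic cells. RNA from the whole organ reports the mean over these cells, in which fewer cells of a type and less RNA per cell cannot be told apart.

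The deposited identifiers are of the AAEL series, and 0 of the 12813 were found in the reference table used here, which gives other identifiers. Names, functions, positions and sequences of the split genes are therefore not given, and the testis label could not be set against marker genes. Only the 2 largest gaps in each direction are named by identifier. Array medians lay between 1836 and 1985 on the deposited intensity scale. RED replicate 3 stood apart from the other arrays, with correlations across all genes of 0.874 to 0.908, whereas each other array had at least 1 correlation of 0.958 or more. The gaps, spreads and strain differences below are also given without it, except the split within RED, which cannot be had without this array. In their descriptions the RED samples are also called T37 replicates, which contradicts the title and strain given for each.

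The split was much wider for genes high in set B than for genes high in set A. The 100 genes high in set B had gaps of 1.29 to 1.92 on the log2 scale, with a median of 1.43, so that the dimmest set B array was 2.45-fold to 3.78-fold brighter than the brightest set A array. The 100 genes high in set A had gaps of 0.34 to 0.91, with a median of 0.41, or 1.26-fold to 1.87-fold. The smallest gap among the genes high in set B thus exceeded the largest among the genes high in set A. A gap above 1 was found for 233 genes in favour of set B and for 0 in favour of set A, among the 9944 genes above the level limit. Any gap above 0 was found for 839 genes in favour of set B (8.44%) and for 772 in favour of set A (7.76%). The 200 genes were cut from these by rank, and nothing is read from those shares.

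**Figure D1:**
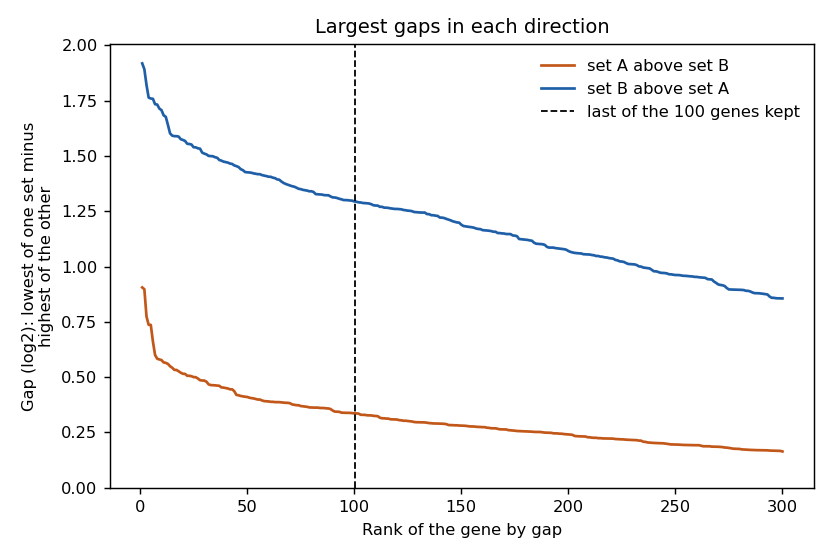
The 300 largest gaps in each direction (y axis, log2 scale) against the rank of the gene (x axis), with set B above set A in blue and set A above set B in orange. The dashed line marks the last of the 100 genes kept, at a gap of 1.29 for set B and 0.34 for set A, and neither curve has a step there.

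The cuts fell in the middle of a continuous slope. In favour of set B, the last genes inside had gaps of 1.298 and 1.295 and the first genes outside 1.294 and 1.291. In favour of set A, the last inside had 0.337 and 0.337 and the first outside 0.336 and 0.336. The genes just outside are as split as those just inside, and the 100 in each direction are a sample of the widest part of a longer list.

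AAEL004208 had the widest gap in favour of set B, 1.92 on the log2 scale, or 3.78-fold. Its deposited intensity was 3233, 3002 and 12227 in T37 replicates 1, 2 and 3, against 22907, 14441 and 1567 in RED replicates 1, 2 and 3. Both strains thus held bright and dim arrays, with T37 replicate 3 next to RED replicates 1 and 2 and with RED replicate 3 dimmest of all. Its strain means were close beside that spread, at 12.26 ± 1.14 in T37 and 12.97 ± 2.07 in RED (log2, SD, n = 3 each), T37 minus RED being -0.71 with a 95% interval of -3.40 to 1.98 (SE 1.11; limma adjusted p = 0.77). Without RED replicate 3 it was -1.89 (limma adjusted p = 0.11). For this and the other named genes the rule forces overlap of the strains and a wide spread within them. Their strain intervals and p-values are therefore descriptions, with or without that array.

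AAEL001072 had a gap of 1.89, or 3.71-fold, and the same arrangement of arrays. Its intensity was 1268, 1260 and 5041 in T37 replicates 1, 2 and 3, against 7122, 4708 and 349 in RED replicates 1, 2 and 3. T37 replicates 1 and 2 were nearly equal, whereas the RED arrays spanned more than any pair of T37 arrays. The strain difference was -0.18 with a 95% interval of -3.17 to 2.81 (SE 1.23; limma adjusted p = 0.96), and -1.53 without RED replicate 3 (limma adjusted p = 0.17).

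AAEL001077 had the widest gap in favour of set A, 0.91 on the log2 scale, or 1.87-fold. Its intensity was 1121, 934 and 499 in T37 replicates 1, 2 and 3, against 262, 453 and 1151 in RED replicates 1, 2 and 3. Here RED replicate 3 was level with T37 replicate 1, and RED replicate 1 was dimmest. The strain difference was 0.64 with a 95% interval of -0.80 to 2.09 (SE 0.60; limma adjusted p = 0.59). Without RED replicate 3 this gene stood at 1.23 (limma adjusted p = 0.11).

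AAEL000691 followed with a gap of 0.90, or 1.86-fold. Its intensity was 1022, 1223 and 470.5 in T37 replicates 1, 2 and 3, against 487, 549 and 1174 in RED replicates 1, 2 and 3. The 3 low arrays were close to each other, and so were the 3 high ones. The strain difference was 0.30 with a 95% interval of -0.89 to 1.49 (SE 0.49; limma adjusted p = 0.78), and 0.70 without RED replicate 3 (limma adjusted p = 0.31).

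The genes high in set B shared more than the division into sets. RED replicate 1 was the highest of the 6 arrays in 100 of the 100 genes, and RED replicate 3 the lowest in 100 of 100. The rule asks for neither, since it fixes only which 3 arrays are above the other 3. Over all 9944 genes above the level limit this pair of extremes occurred in 632 (6.36%), and among the 739 other genes with a gap in favour of set B it occurred in 420 (56.8%). T37 replicate 2 was below T37 replicate 1 in 85 of the 100, against 49.4% of the 9944 genes and 68.7% of the 739. T37 replicate 3 was below both RED replicates 1 and 2 in 74, against 38.1% and 62%. These 2 orders were thus also common among the other genes with a gap in favour of set B.

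Set against each gene's own mean over the 6 arrays, the genes high in set B stood at a median of -0.68 on T37 replicate 1, -0.87 on T37 replicate 2 and 0.82 on T37 replicate 3. On RED replicates 1, 2 and 3 the medians were 1.71, 1.01 and -1.93. In this order of levels, neighbours whose interquartile ranges overlapped were T37 replicates 1 and 2 (-0.79 to -0.59 and -1.02 to -0.76) and T37 replicate 3 with RED replicate 2 (0.71 to 0.94 and 0.86 to 1.12). RED replicate 1 (1.48 to 1.89) and RED replicate 3 (-2.26 to -1.59) overlapped with no other array. Within genes, arrays that share a level could still be ordered, as T37 replicate 2 was below T37 replicate 1 in 85 of 100. Judged by these overlaps across genes, the arrays formed a graded series of 4 levels, not only a high and a low set.

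That series was nearly the same in all 100. The first principal component of their values, each gene centred on its mean, held 98.2% of the variance, and 98.7% without RED replicate 3. Each gene's profile over the 6 arrays correlated with the median profile of the other 99 at 0.956 to 0.9998, with a median of 0.994. These correlations are over 6 arrays, of which the rule fixed the division, and they describe only how alike the genes are.

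**Figure D2:**
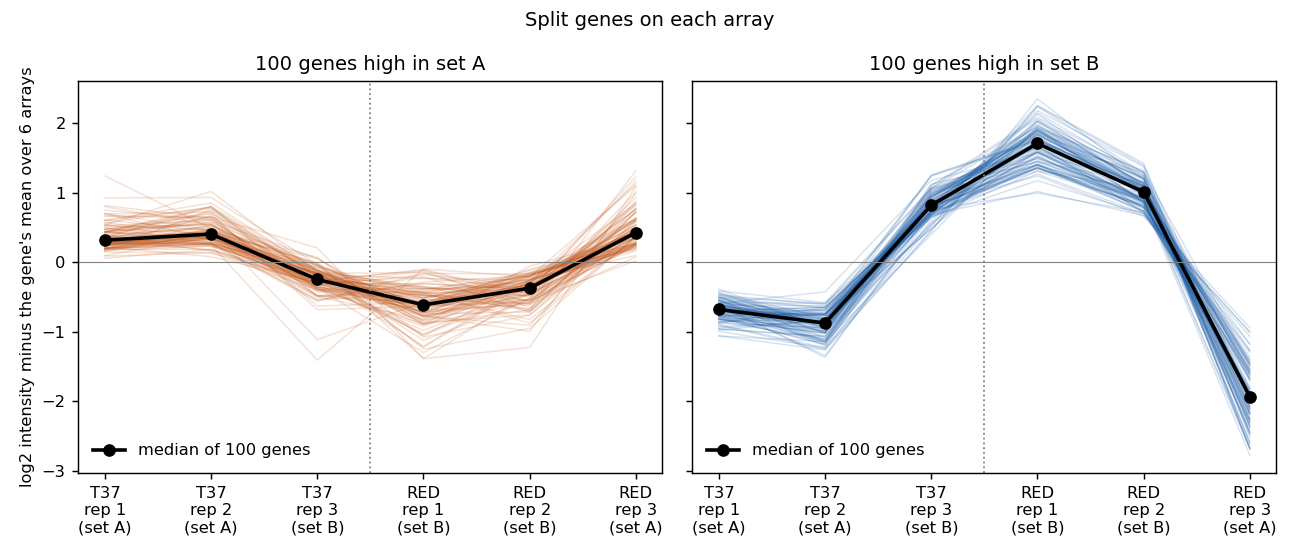
Log2 intensity minus the gene's mean over 6 arrays (y axis) on each array (x axis), for the 100 genes high in set A (left) and the 100 high in set B (right); thin lines are genes and the black line is their median. The set B genes peak on RED replicate 1 at a median of 1.71 and drop to -1.93 on RED replicate 3, while the set A genes stay between medians of -0.61 and 0.43.

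The genes high in set A had profiles less alike in shape, beside a much smaller split. Component shares and correlations are relative to the size of the split, so they do not show a wider spread in log2 units. Their medians against the gene mean were 0.32, 0.41 and -0.25 on T37 replicates 1, 2 and 3, against -0.61, -0.37 and 0.43 on RED replicates 1, 2 and 3. RED replicate 3 was the highest array in 50 of them, T37 replicate 2 in 38 and T37 replicate 1 in 12. Among the 672 other genes with a gap in favour of set A the shares were 37.6%, 42.9% and 19.5%. The rule leaves only the 3 arrays of a set as candidates. RED replicate 1 was the lowest in 67, RED replicate 2 in 21 and T37 replicate 3 in 12, against 56.1%, 22.9% and 21% of the 672. RED replicate 3 highest together with RED replicate 1 lowest occurred in 30 of the 100, against 385 of the 9944 genes (3.87%) and 115 of the 672 other genes with a gap in favour of set A (17.1%). The first component held 85.2% of their variance (88.7% without RED replicate 3), and profiles correlated with the median of the others at 0.62 to 0.997, with a median of 0.938.

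The median profiles of both groups were near mirror images, with r = -0.966 over the 6 arrays. The rule sets opposite directions and so fixes most of this.

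Within each strain taken alone, the genes high in set B split more widely in RED than in T37. T37 replicate 3 was above the mean of T37 replicates 1 and 2 with a log2 median of 1.59 (1.31 to 1.998). The mean of RED replicates 1 and 2 was above RED replicate 3 by a median of 3.26 (1.79 to 4.37). The RED split was 1.15 to 2.70 times the T37 split, with a median of 2.06, and was the larger in each of the 100 genes. The like share among other genes with a gap was not counted. For genes high in set A the ratio ran from 0.42 to 5.26, with a median of 1.44. The SD between replicates had a median of 0.93 in T37 and 1.93 in RED for the genes high in set B, and of 0.34 in T37 and 0.59 in RED for those high in set A. Over all 9944 genes it was 0.23 in T37 and 0.31 in RED. The rule picks genes split inside both strains, so SDs above those of all genes follow from the choice. Over RED replicates 1 and 2 alone, the RED median was 0.48 for the genes high in set B, 0.21 for those high in set A and 0.21 over the 9944 genes.

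**Figure D3:**
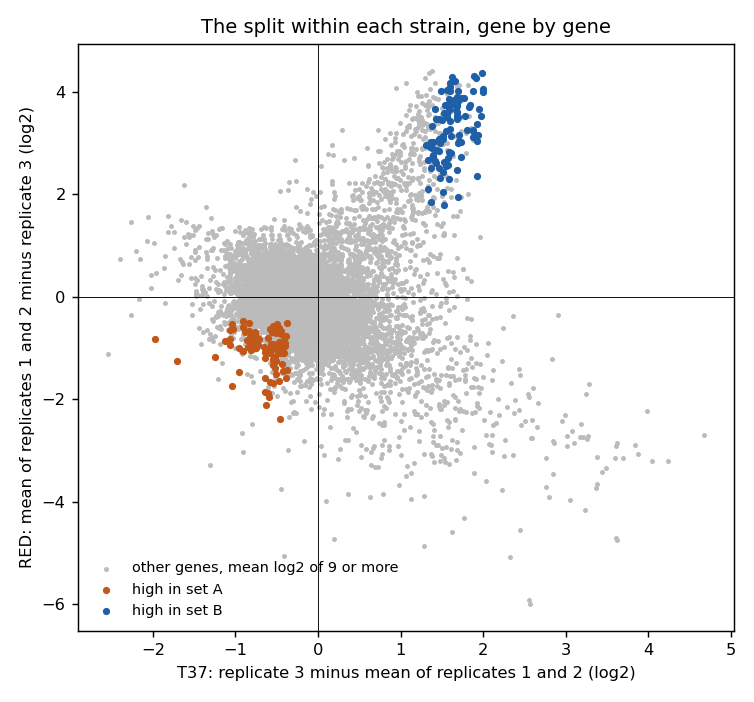
T37 replicate 3 minus the mean of T37 replicates 1 and 2 (x axis, log2) against the mean of RED replicates 1 and 2 minus RED replicate 3 (y axis, log2), for 9944 genes above the level limit. Genes high in set B (blue) sit at the end of an arm that reaches up and right from the cloud, with medians of 1.59 and 3.26, and genes high in set A (orange) sit at the lower left edge of the cloud, with medians of -0.58 and -0.96.

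Genes were also chosen in 1 strain alone, after the arm had been seen on these same 6 arrays, so the counts that follow describe it and are no independent support. The 100 genes above the level limit in which RED replicate 3 lay farthest below both RED replicates 1 and 2 (by 3.04 to 4.10) were taken first. In T37, replicate 3 was above both replicates 1 and 2 in 100 of these 100 genes, against 32.1% of the 9944 genes. The median height of T37 replicate 3 over the higher of the other two was 1.40 (log2). Of these genes, 45 were among the 100 high in set B, for which the rule itself put T37 replicate 3 above T37 replicates 1 and 2. The T37 and RED arrays share no sample, although the authors' normalisation treated them together.

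The other choices of this kind gave mixed counts. The 100 genes in which T37 replicate 3 lay farthest above T37 replicates 1 and 2 (by 1.55 to 4.38) had RED replicates 1 and 2 above RED replicate 3 in 50, against 37.9% over all, and the reverse in 48, against 41.0%. Of these, 28 were among the 100 genes high in set B, for which the rule itself put RED replicates 1 and 2 above RED replicate 3. The 50 is therefore not to be read as above the share over all. The 100 in which RED replicate 3 lay farthest above RED replicates 1 and 2 (by 2.25 to 5.98) had T37 replicate 3 below T37 replicates 1 and 2 in 4, against 53.5%, and above them in 82, against 32.1%. In most of these genes replicate 3 was thus raised in both strains, a pattern that crosses the division into sets. The 100 in which T37 replicate 3 lay farthest below T37 replicates 1 and 2 (by 1.13 to 2.23) had RED replicate 3 above RED replicates 1 and 2 in 22, against 41.0%, and below them in 53, against 37.9%. Of the genes high in set A, 1 was among those chosen for a raised RED replicate 3 and 2 were among those chosen for a low T37 replicate 3. The rule fixed the order in the other strain for these too. Over all 9944 genes the T37 split and the RED split correlated at Pearson r = -0.0020 and Spearman rho = -0.13, across genes, which are not independent.

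Members of both directions were of low to middle level. Mean log2 intensity had a median of 10.69 for genes high in set B (9.14 to 13.87) and of 9.75 for those high in set A (9.003 to 14.06), against 11.52 over the 9944 genes. With these genes put in order of level and cut into 10 equal bins, 40 of the genes high in set A lay in the dimmest bin and 63 in the dimmest 2. The genes high in set B were spread more evenly, with 10 to 20 in each of bins 1 to 6, then 4, 2 and 3 in bins 7, 8 and 9 and 0 in bin 10. Of the genes high in set A, 71 lay under the array median on all 6 arrays. Of those high in set B 4 did, against 20.9% of the 9944 genes. Among other genes with a gap in favour of set A or set B the shares were 47.5% and 35.2%. A gap above 0 in favour of set A was found in 16.6% of the dimmest bin and 2.61% of the brightest. In favour of set B the shares were 21.2% and 3.82%. A low level was thus not particular to the members. No member was among the 200 brightest genes, against 2.01% of the 9944 genes. No member lay under the 5th percentile of any array, against 0.191%, a share that the level limit itself keeps small.

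**Figure D4:**
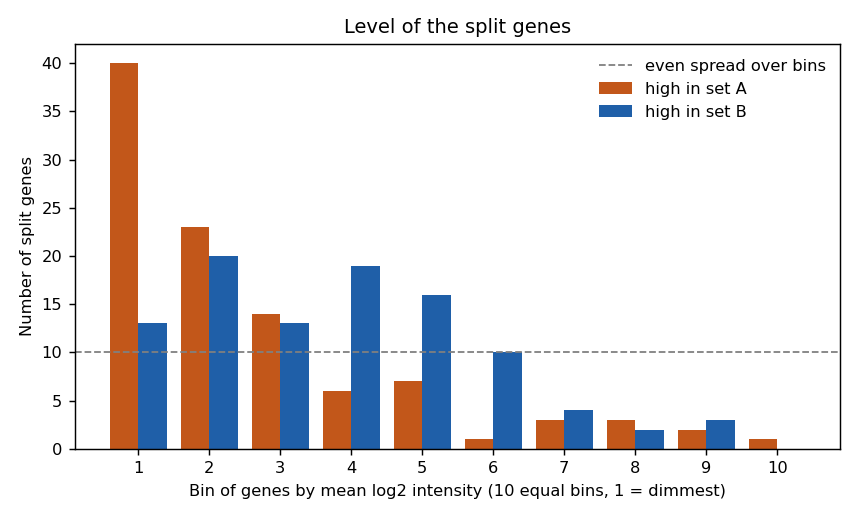
Number of split genes (y axis) in 10 equal bins of the 9944 genes by mean log2 intensity (x axis, 1 is the dimmest), with genes high in set A in orange and genes high in set B in blue. The dimmest bin holds 40 and 13, and the dashed line marks the 10 that an even spread would give.

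Genes high in set B crossed much of an array's range. Their median log2 intensity was 9.97, 9.74 and 11.45 on T37 replicates 1, 2 and 3, against 12.38, 11.60 and 8.63 on RED replicates 1, 2 and 3. As percentiles of all genes on the same array, the medians were 37.2, 33.6 and 59.6 on the T37 arrays, against 74.0, 61.9 and 19.3 on the RED arrays. For genes high in set A the percentiles were 40.5, 39.7 and 29.6 on the T37 arrays, against 22.9, 27.4 and 40.3 on the RED arrays.

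The sets also differed in the shape of the whole array. The 5th percentile of log2 intensity was 7.37, 7.61 and 7.45 on the set B arrays (T37 replicate 3, RED replicates 1 and 2), against 6.94, 6.99 and 6.47 on the set A arrays (T37 replicates 1 and 2, RED replicate 3). The 25th percentile was 9.16, 9.25 and 9.15 on the set B arrays, against 9.05, 9.10 and 9.11 on the set A arrays. The medians ran the other way, at 10.82, 10.80 and 10.82 on the set B arrays, against 10.85, 10.90 and 10.89 on the set A arrays. Among the 2869 genes under the level limit, a gap in favour of set B was found in 36.8% and a gap in favour of set A in 8.82%. After quantile normalisation, which gives all arrays the same distribution, the median gap was 1.42 for the genes high in set B and 0.41 for those high in set A, with the gap above 0 in 100 of 100 in both directions. After cyclic loess, which removes differences that depend on level, the medians were 1.51 and 0.37, again with 100 of 100 above 0. The genes had the widest gaps in the same values, which favoured gaps above 0. The lowest gap among the genes high in set A fell to 0.08 after cyclic loess. Applied anew, the rule returned 82 of the genes high in set A after quantile normalisation and 77 after cyclic loess. For the genes high in set B it returned 90 and 88. Slide, scan and other batch information was not used here, and the part of these in the split was not tested.

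Without RED replicate 3, which stood apart, the median gap was 1.43 for the genes high in set B and 0.46 for those high in set A. Leaving out an array can only widen the gap of a fixed gene. As RED replicate 3 was the lowest array in each of the genes high in set B, it set none of their gaps. Applied anew to the other 5 arrays, the rule returned 76 of the 100 genes high in set B and 10 of the 100 high in set A. Without T37 replicate 3 it returned 52 and 16. Membership thus turned on single arrays in both groups, and more so in the set A group.

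Of the 200 genes, 3 had several transcripts on the array, all of them high in set A and with 2 transcripts each. Over the 9944 genes, 447 had several. The rule used the mean of a gene's transcripts. In the first of these genes the transcripts had gaps of 0.53 and 0.32, in the second 0.07 and 0.55, and in the third 0.45 and 0.32. Each transcript alone thus had its set A arrays above its set B arrays.

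The comparison of the strains, the question of the study, did not pick these genes. At a limma adjusted p under 0.05 over all genes, 0 of the 200 were called, against 4.53% of the genes measured, and the smallest adjusted p among them was 0.22. At an unadjusted p under 0.05 there was 1, a gene high in set A, against 22.7% of the genes measured. The strains' arrays did not overlap in 28.7% of the genes measured and in 0 of the 200. The rule forces that overlap, since each set holds arrays of both strains, and it forces a wide spread within strains. The residual SD of the strain fit had a median of 1.54 for the genes high in set B and 0.50 for those high in set A, against 0.30 for the 9944 genes. The absence of calls therefore does not show that the strains were alike in these genes.

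The fitted strain differences leaned one way in each group. For genes high in set A the difference T37 minus RED had a median of 0.35 on the log2 scale (-0.53 to 1.22) and was above 0 in 95 of 100. For genes high in set B the median was -0.47 (-1.25 to 0.11), and it was below 0 in 97 of 100. Over the 9944 genes the median was 0.04, with 53.6% above 0. Since 2 of the 3 arrays of set A are T37 and 2 of the 3 of set B are RED, any difference between the sets, divided by 3, enters the strain difference by construction. That amounts to a median of 0.28 for genes high in set A and -0.79 for genes high in set B. The choice of genes thus builds a lean into each group. The fitted medians of 0.35 and -0.47 also hold the strain differences inside the sets. The medians also moved with single arrays. For genes high in set B, leaving out T37 replicates 1, 2 and 3 in turn gave -0.26, -0.16 and -1.01, and leaving out RED replicates 1, 2 and 3 gave 0.20, -0.12 and -1.53, so that the sign changed without RED replicate 1. The medians of genes high in set A were 0.25, 0.22 and 0.53 without T37 replicates 1, 2 and 3, and 0.13, 0.26 and 0.63 without RED replicates 1, 2 and 3.

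**Figure D5:**
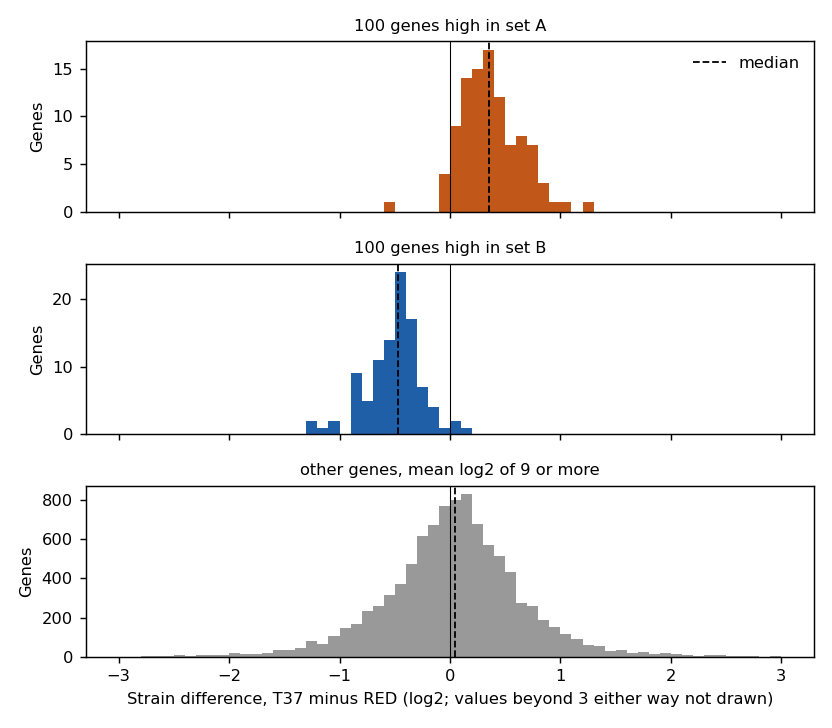
Number of genes (y axis) by strain difference, T37 minus RED (x axis, log2), for the 100 genes high in set A, the 100 high in set B and the other genes above the level limit. Dashed lines mark the medians, 0.35 and -0.47 for the split genes, and the few differences beyond 3 in either direction are not drawn.

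Inside the sets, strain differences for genes high in set B ran in opposite directions. Between the low arrays, T37 replicates 1 and 2 averaged 1.16 above RED replicate 3 (median over genes, 0.13 to 2.23), and RED replicate 3 was below both in 100 of 100, against 51.9% of the 9944 genes. Between the high arrays, T37 replicate 3 was below the mean of RED replicates 1 and 2 by a median difference of -0.48 (-1.36 to -0.06). With 1 array on one side of each, neither was tested. For genes high in set A the medians were -0.06 between T37 replicates 1 and 2 and RED replicate 3 and 0.24 between T37 replicate 3 and RED replicates 1 and 2.

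What the strain comparison says of these genes depended on the third replicates. Without RED replicate 3, the strains' arrays did not overlap in 74 genes high in set B and 63 high in set A. The rule already parted T37 replicates 1 and 2 from RED replicates 1 and 2. Only the place of T37 replicate 3 was free, so the 49.0% of the genes measured is no like share. Among other genes with a gap in favour of set B or set A the shares were 62% and 50.6%. Limma called 5 of the 200, all high in set A and higher in T37, against 7.47% of all genes. Without T37 replicate 3, the arrays did not overlap in 0 genes high in set B and 34 high in set A (48.1% of the genes measured). Here only the place of RED replicate 3 was free, and it was the lowest array in each gene high in set B. Among other genes with a gap in favour of set A the share was 44.9%. Limma then called 0 of the 200, against 2.44% of all genes, with 11 at an unadjusted p under 0.05, against 25.3%.

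Without the third replicates of both strains, a choice made after the data were seen, limma called 100 of the 100 genes high in set B, all lower in T37, and 73 of the 100 high in set A, all higher in T37, against 32.9% of all genes. With those arrays gone, set A is T37 and set B is RED, so the rule itself fixed the direction and the lack of overlap. The median strain difference was then -2.12 for the genes high in set B and 0.88 for those high in set A.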

How the data were processed

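The authors deposited 1 table of intensities on a linear scale, with 13471 transcripts and 6 arrays; RMA (background correction, normalisation between arrays, probe summary) made these values, per the submitters' processing notes. Its version, the array design and the annotation release are not stated in the sources used here. Deposited intensities ran from 7.70 to 64205, and without detection calls a low value cannot be told from background. Log2 was taken with no pseudocount and transcripts of a gene were averaged. Groups come from the sample titles. The labels name separately extracted testes as replicates. The strain comparison used lmFit and eBayes of limma 3.58.1 (R 4.3.3; all 6 arrays, no covariate, two-sided) with Benjamini-Hochberg adjustment over 12813 genes and a threshold of 0.05. Precision is limited by the number of arrays. The selection and the fit were run on simulated data with independent noise and planted set differences wider than those of the split genes. That checks the code and not how the rule behaves on data like these. The genes, sets and lists were chosen with earlier results of these data known. Named genes are the 2 largest gaps in each direction, since no table names the identifiers; for the same reason the lists of gene families and tissue markers were not run. Alternatives were each array left out, a replicate block, quantile normalisation, cyclic loess, median centring, the brightest transcript per gene, removal of the dimmest 25% of genes, an intensity trend, log2(value + 50), level limits of 8 and 10, and set means in place of the gap.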

Additional observations from a re-analysis of the deposited data

How the results depend on the processing

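Of 58 values under alternatives other than leaving out 1 array, 49 stayed within 1.5 times the reported count or within the genes' median residual SD of the reported median. That SD, 1.54 for genes high in set B and 0.50 for those high in set A, exceeded the median gaps of 1.43 and 0.41. The median gaps could thus hardly leave this range, and the rule favoured the 0 calls among the 200. The 49 are therefore no measure of robustness. These included 68 of the 100 genes high in set B returned with a level limit of 10, and a median gap of 0.62 for genes high in set A without the third replicates of both strains, against 0.41. The other 9 follow. The rule returned 51, 38 and 14 of the 100 genes high in set A with a level limit of 8, a limit of 10 and set means in place of the gap, and 59 of the 100 high in set B with set means. Without the third replicates of both strains (added after the data were seen), limma called 173 of the 200 and 4221 of all genes, with median strain differences of 0.88 and -2.12 for genes high in set A and set B. With a replicate block limma called 0 of all genes, against 580 without it, and 0 of the 200, with 2467 of all genes and 0 of the 200 at an unadjusted p under 0.05. The labels do not say whether equal replicate numbers mark a pair. Deviations of same-numbered arrays correlated at -0.25, -0.16 and -0.17. Each array had a higher correlation with another number of the other strain. With 3 arrays per strain these values cannot decide whether the numbers pair the arrays, and this was not tested. Leaving out 1 array, the calls ranged from 10 to 957 over all genes and from 0 to 5 among the 200. The rule then returned 10 to 84 of the genes high in set A and 52 to 97 of those high in set B. For genes high in set A the median gap ranged from 0.44 to 0.58 and the median strain difference from 0.13 to 0.63; for genes high in set B they ranged from 1.43 to 1.69 and from -1.53 to 0.20. The cause of these moves was not tested. Signal over background could not be judged without detection calls.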

Other observations

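Beyond the 200 genes, the profile of those high in set B was found in others. Of the 9744 other genes of sufficient level, 303 (3.11%) correlated at 0.95 or more over the 6 arrays with the median profile of the genes high in set B, and 39 (0.4%) at -0.95 or less. For the median profile of the genes high in set A, 30 (0.308%) reached 0.95 and 243 (2.49%) lay at -0.95 or less. These counts describe likeness over 6 arrays that share a normalisation and carry no test. They were chosen after the data were seen.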
